A study of Mus musculus with 4 samples.

Results

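Lysosome, V-ATPase and autophagy genes were examined in cultured mouse brown adipocytes with and without knockdown of Blnc1, a long noncoding RNA of brown fat. A gene was included when its annotated symbol marked it as a V-ATPase subunit or accessory protein, a cathepsin, Lamp1 or Lamp2, an Atg gene, or 1 of a short list of autophagy genes and regulators. This gave 69 of the 17097 genes with a usable probe set. The control cells carried a scrambled short hairpin RNA (Scramble), and the knockdown cells carried a hairpin against Blnc1 (Blnc1 shRNA, labelled shBlnc1). Both groups were differentiated for 6 days before harvest, and each is represented by 2 arrays described as biological replicates. The mouse strain, the origin of the cells and the way the hairpins were delivered are not given in the sources used here, and no probe set is named Blnc1, so the knockdown itself was not analysed here. Whether the replicates came from separate cultures is also not given, so the p-values measure only the spread between these arrays.

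The lysosome is an acidic compartment that breaks down material delivered by endocytosis and by autophagy. Its acidity comes from the V-ATPase, a rotary proton pump whose V1 sector hydrolyses ATP in the cytosol while its V0 sector carries protons through the membrane, and cathepsins are the proteases that work in the acid lumen. In autophagy, a membrane grows around cytoplasm or an organelle, is coated with lipid-linked proteins of the Atg8 family, and fuses with the lysosome. In brown and beige fat cells this route is known for clearing mitochondria. Many of these genes are known targets of the MiT/TFE transcription factors Tfeb, Tfe3 and Mitf, which bind an E-box with flanking bases, the CLEAR motif.

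Values are log2 expression values, so a difference of 1 is a doubling, and each gene is represented by its brightest probe set. A gene was called when limma gave a Benjamini-Hochberg adjusted p under 0.05 over all 17097 genes. A group mean at or below a log2 value of 2.55, the highest antigenomic control probe set, is described as at background. Within the groups the arrays correlated at r = 0.995 (scramble) and r = 0.996 (knockdown) across probe sets, which are not independent. The fat cell markers Adipoq, Fabp4 and Pparg were far above background on every array. Of the 7 measured brown fat markers, 4 were called lower in knockdown (Ucp1, Cidea, Cox7a1 and Cox8b). Some features of the RNA also differed by group. For Actb, the control probe set at the 3' end exceeded the one at the 5' end by 1.07 ± 0.11 log2 units on the scramble arrays (SD, n = 2), against 1.82 ± 0.08 with knockdown (SD, n = 2). Of 9 hepatocyte markers 8 were called lower, with a summed linear level of 282 to 296 on the scramble arrays and 69.7 to 94.8 on the knockdown arrays. The part of these features in the differences below was not tested.

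Most members were not called between scramble and knockdown, which does not show them to be unchanged. Of the 69, 10 were called (14.5%), where 18.5% of all genes were called. Among genes above background in a group, 16.4% of 61 members were called, against 24% of 12887 genes. The member share was not above either background and is not a result about these genes. The 6 called higher were Ctsk, Ctsc, Ctsh, Mitf, Atp6ap1 and Lamp2, and the share called higher over all genes was 11.4%. The 4 called lower were Gabarapl1, Atg101, Gabarapl2 and Atp6v1e1, and the share over all genes was 7.18%. The median log2 fold change of the 69 was -0.05 (range -0.64 to 1.23), against -0.04 over all genes. The groups did not overlap for 49 members (71.0%), against 62.6% of all genes. Only Ctsk changed by at least 1 log2 unit. The counts by role below rest on few genes each and are not results about the roles.

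Both scaling and single arrays affected these counts. Over all genes the called ones split into 1941 higher and 1228 lower, into 1514 and 1564 after quantile normalization, and into 2383 and 844 after median centring of the arrays. Among the members the split was 6 and 4, stayed 6 and 4 after quantile normalization, and was 9 and 3 with median centring. Without knockdown replicate 1, or without knockdown replicate 2, 4 members were called, which were Ctsk, Ctsc, Ctsh and Mitf each time. The share called over all genes then fell to 7.21% and 6.14%.

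**Figure D1:**
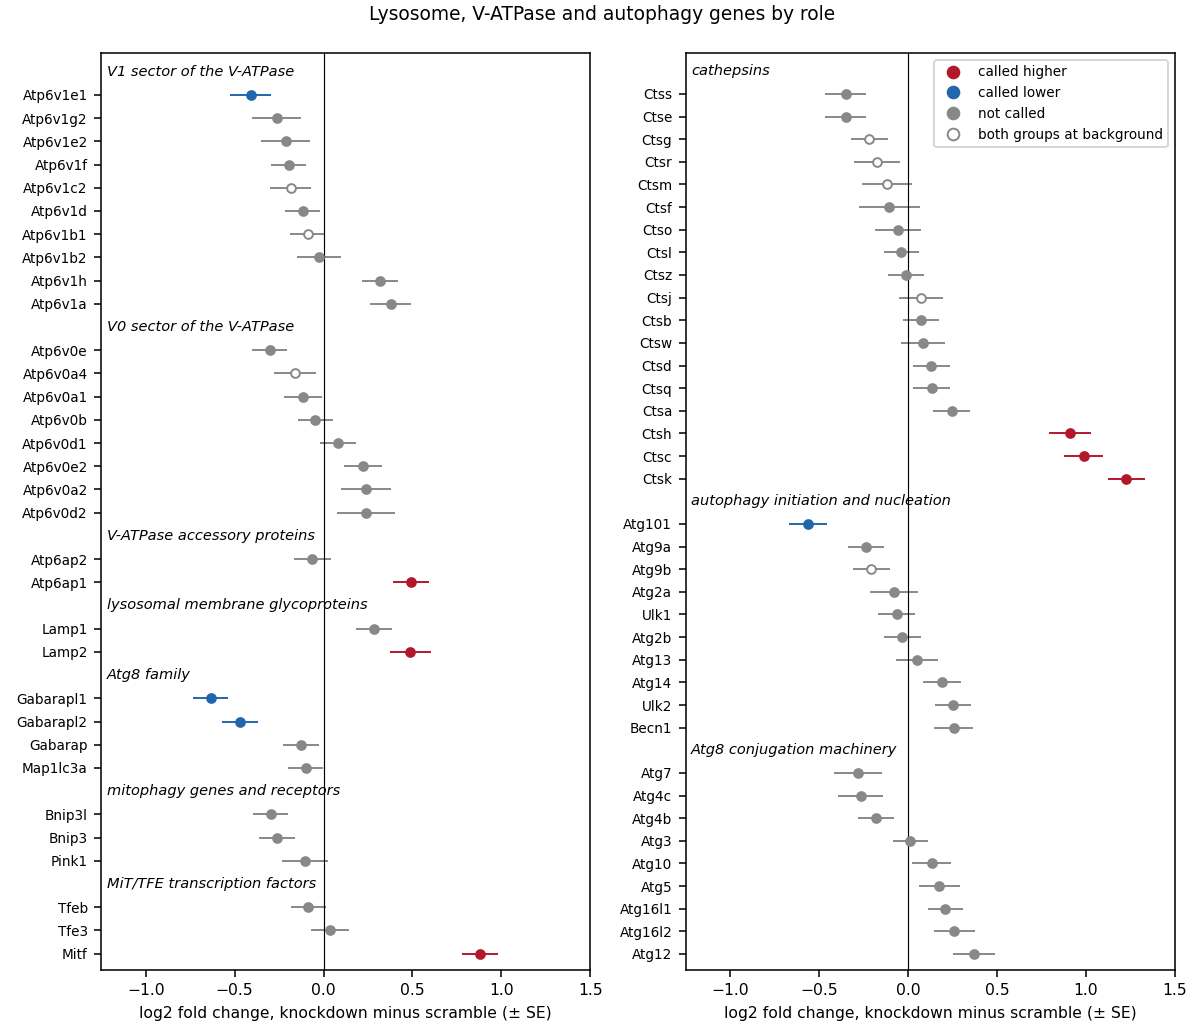
Log2 fold change, knockdown minus scramble, of each of the 69 genes with its standard error from limma, grouped by role (rows) with 2 arrays per group. Red and blue points are the 6 genes called higher and the 4 called lower, grey points were not called, and open points mark the 8 genes at background in both groups.

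**Figure D2:**
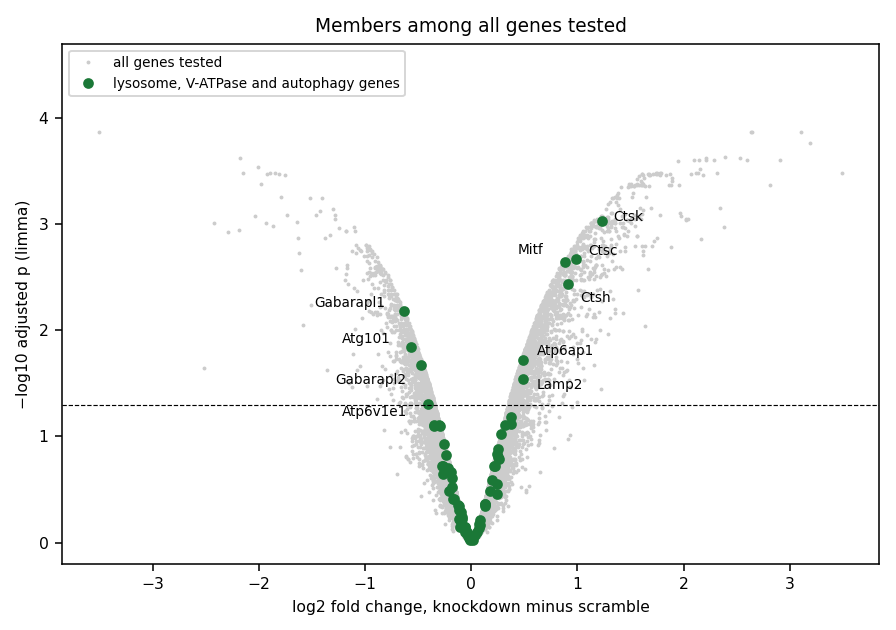
Log2 fold change (horizontal) against the −log10 of the limma adjusted p (vertical) for all 17097 genes tested, with the 69 members in green and the threshold of 0.05 as a dashed line. The members lie within the cloud of all genes, and the 10 named points are the called ones.

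Of the 3 transcription factors of the MiT/TFE family, only Mitf was called. Mitf (Entrez Gene 17342), best known from melanocytes and osteoclasts, read 4.74 and 4.68 in scramble and 5.60 and 5.57 in knockdown. It was 1.84-fold higher in knockdown (log2 fold change 0.88, SE 0.10, adjusted p = 0.00225), and the groups were well apart. A dimmer Mitf probe set, above background only in scramble, gave -0.23 (SE 0.10), so the rise rests on 1 probe set, and the mean over both gave 0.32 (adjusted p = 0.0364). Tfeb, the best studied activator of lysosomal genes, read 4.13 and 4.07 in scramble and 4.04 and 3.99 in knockdown, a log2 fold change of -0.09 (SE 0.10, adjusted p = 0.595). Tfe3 read 5.55 and 5.42 against 5.48 and 5.55, with overlapping groups and a log2 fold change of 0.04 (SE 0.11, adjusted p = 0.848) that became -0.13 after quantile normalization. These arrays measure RNA, and MiT/TFE proteins are known to be controlled largely by their move into the nucleus.

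Promoter sequences are shown because the CLEAR motif is the known link between these factors and lysosomal genes. Windows from 250 bases before to 50 bases after the annotated starts were taken from RefSeq (GRCm38.p6), and 64 windows of 56 members were found. The E-box CACGTG, which reads the same on both strands, occurred in 14 of the 64 windows (21.9%). It occurred in 7.15% of all 32851 windows and in 9.43% of the 13188 windows of genes above background in a group. The longer TCACGTGA, also its own reverse complement, was in 9.38% of member windows, 0.974% of all and 1.66% of those of genes above background. GTCACGTG, which reads CACGTGAC on the other strand, was in 12.5% of member windows, 2.25% of all and 3.70% of those of genes above background. Both longer forms contain CACGTG, base composition was not matched, and a match is not a binding site.

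The printed stretches are the 120 bases before the start, read 5' to 3' along the gene's strand, with E-box matches and their motif flanks in capitals. Lamp1, Ctsd and Atg3 hold the motif and were not called, while Ctsk and Gabarapl1 lead the called members in each direction and hold no match in this stretch. The 5 were chosen after their sequences and values were seen. They lie at chr8:13159041-13159160 (Lamp1, + strand), chr7:142387828-142387947 (Ctsd, - strand), chr16:45158709-45158828 (Atg3, + strand), chr3:95499090-95499209 (Ctsk, + strand) and chr6:129533072-129533191 (Gabarapl1, + strand).
Lamp1: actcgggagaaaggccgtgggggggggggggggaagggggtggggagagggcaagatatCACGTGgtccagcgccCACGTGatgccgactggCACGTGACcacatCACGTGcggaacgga
Ctsd: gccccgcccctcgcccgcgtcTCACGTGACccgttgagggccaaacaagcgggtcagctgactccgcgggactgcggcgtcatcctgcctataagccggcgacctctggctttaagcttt
Atg3: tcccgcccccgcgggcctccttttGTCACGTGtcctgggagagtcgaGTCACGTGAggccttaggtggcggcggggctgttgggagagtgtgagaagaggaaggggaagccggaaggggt
Ctsk: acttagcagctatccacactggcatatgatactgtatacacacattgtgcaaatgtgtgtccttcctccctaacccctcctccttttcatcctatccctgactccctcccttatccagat
Gabarapl1: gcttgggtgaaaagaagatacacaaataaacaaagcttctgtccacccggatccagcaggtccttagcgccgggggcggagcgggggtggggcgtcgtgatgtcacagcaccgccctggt

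The stretch of Lamp1 holds 4 E-boxes, that of Atg3 holds 2 and that of Ctsd holds 1. Of the 14 members with CACGTG in a window, limma called 0, and 5 had an unadjusted p under 0.05. Of the 42 members whose windows hold none, 5 were called higher and 4 lower. The median log2 fold change was 0.05 in the first set and -0.10 in the second. With a variance trend in eBayes, Atp6v0e, Atp6v1a, Bnip3, Ctsa and Lamp1 of these 14 were called. Over all 17097 genes 18.5% were called, and 25.6% with that trend, while 5781 had an unadjusted limma p under 0.05. Both sets are small, and their counts are not a result about the motif.

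By their brightest probe sets, 2 V-ATPase genes were called, Atp6v1e1 and the accessory gene Atp6ap1, while dimmer probe sets of Atp6v1a and Atp6v0a2 gave larger changes. Of 10 V1 genes, 1 was called lower (10%), where 7.18% of all genes were called lower. At background in both groups were 2 of them (Atp6v1b1 and Atp6v1c2, isoforms known from other tissues). Atp6v1e1 (Entrez Gene 11973), a peripheral stalk subunit, read 8.62 and 8.40 in scramble and 8.07 and 8.13 in knockdown. It was 1.33-fold lower (log2 fold change -0.41, SE 0.11), and its adjusted p of 0.0499 lay just inside the threshold. The call was lost after median centring (adjusted p = 0.0817), without scramble replicate 1 (0.138), without knockdown replicate 1 or 2 (0.216 and 0.176), and without probe sets that may cross-detect other transcripts (0.109). The other Atp6v1e1 probe sets above background in a group had log2 fold changes of -0.41 and -0.30. The one with -0.41 read 2.64 and 2.53 in scramble and 2.15 and 2.20 in knockdown. It was thus at background in knockdown and close to it in scramble. Adjusted over all 28898 probe sets with 1 symbol, this dim probe set was called (limma adjusted p = 0.0363) and the brightest was not (0.0536).

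Atp6v1a, the catalytic subunit that binds ATP, lay just outside the threshold. It read 7.60 and 7.41 in scramble and 7.95 and 7.82 in knockdown, without overlap, a log2 fold change of 0.38 (SE 0.12, adjusted p = 0.0658). A dimmer Atp6v1a probe set read 6.41 and 6.07 against 7.16 and 7.36, which is 2.03-fold higher (log2 fold change 1.02, SE 0.14). Its adjusted p over all probe sets was 0.0052. With the mean over both probe sets Atp6v1a was called (log2 fold change 0.70, adjusted p = 0.0101), and it was also called after median centring, without the dimmest genes, with a variance trend and without scramble replicate 1. Atp6v1h, the regulatory subunit that links ATP hydrolysis to rotation, had a log2 fold change of 0.32 (SE 0.10, adjusted p = 0.0771). Among the other V1 genes, Atp6v1b2, Atp6v1d and Atp6v1f had values of -0.03, -0.12 and -0.20. Atp6v1e2 and Atp6v1g2 were at background in knockdown.

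Of the 8 V0 genes limma called 0, against 18.5% of all genes, and 1 had an unadjusted p under 0.05. Atp6v0c, and Atp6v1c1 and Atp6v1g1 of the V1 sector, are not among the members, so the counts do not cover the whole pump. Tcirg1, a V0 subunit whose symbol falls outside the rule, had a log2 fold change of 0.34 (SE 0.10, adjusted p = 0.0526). Atp6v0d1, the subunit that couples the rotor to the V1 stalk, read 7.78 and 7.72 in scramble and 7.79 and 7.88 in knockdown (log2 fold change 0.08, SE 0.10, adjusted p = 0.616). Atp6v0e read 9.56 and 9.50 against 9.25 and 9.21, a log2 fold change of -0.30 (SE 0.10, adjusted p = 0.0781), with the knockdown arrays both lower and a call with a variance trend. Atp6v0d2, an isoform known from osteoclasts, read 3.76 and 3.29 against 3.82 and 3.70, with overlap. Atp6v0a4, the renal isoform, was at background in both groups, and Atp6v0e2 in scramble only. The remaining V0 genes, Atp6v0a1, Atp6v0b and Atp6v0a2, had log2 fold changes of -0.12, -0.05 and 0.24 from their brightest probe sets. Dimmer probe sets of these 3 differed from those values: 0.45 for Atp6v0a1, -0.50 for Atp6v0b and 0.86 for Atp6v0a2, each with an adjusted p under 0.05 over all probe sets (0.0348, 0.0229 and 0.00521).

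The accessory protein genes act in assembly and trafficking of the pump. Atp6ap1 (Entrez Gene 54411) read 7.51 and 7.61 in scramble and 8.04 and 8.07 in knockdown. It was 1.41-fold higher (log2 fold change 0.49, SE 0.10, adjusted p = 0.0192), from a probe set that may cross-detect other transcripts, and both knockdown arrays were above both scramble arrays. The adjusted p was 0.051, 0.0964 and 0.125 without scramble replicate 1, knockdown replicate 1 and knockdown replicate 2. Atp6ap2, also known as the prorenin receptor, read 8.75 and 8.62 against 8.59 and 8.65, a log2 fold change of -0.06 (SE 0.10, adjusted p = 0.712). A dimmer Atp6ap2 probe set went the other way, with a log2 fold change of 0.47 (SE 0.11, adjusted p = 0.0317 over all probe sets).

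Lamp1 and Lamp2 encode the heavily glycosylated proteins that line the lysosomal membrane, and both had positive values. Lamp2 (Entrez Gene 16784), whose splice form Lamp2a serves chaperone-mediated autophagy, read 9.43 and 9.58 in scramble and 10.08 and 9.91 in knockdown. It was 1.40-fold higher (log2 fold change 0.49, SE 0.12, adjusted p = 0.0288). Its other probe sets had log2 fold changes of 0.30 and 0.76. With scramble replicate 1 left out, its adjusted p was 0.0795. It was 0.178 without the first knockdown array and 0.0838 without the second. Lamp1 read 9.70 and 9.77 against 10.02 and 10.01, with no overlap, a log2 fold change of 0.28 (SE 0.10) and an adjusted p of 0.0946, and it was called in eBayes with a variance trend (adjusted p = 0.000773).

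Cathepsins K, C and H held the largest rises among the members, while the cathepsins B, D and L were not called. Of 18 cathepsin genes 3 were called, all higher (16.7%), near the 18.5% of all genes (11.4% higher), and 4 were at background in both groups: Ctsg of neutrophils and the placental genes Ctsj, Ctsm and Ctsr. Ctsk (Entrez Gene 13038), a collagen-cleaving cysteine protease known from osteoclasts and fibroblasts, read 4.80 and 4.90 in scramble and 6.03 and 6.13 in knockdown. It was 2.34-fold higher (log2 fold change 1.23, SE 0.10, adjusted p = 0.000939), and it was the single member also called by limma's treat against a log2 fold change of 0.5 (adjusted p = 0.0115).

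Ctsc (Entrez Gene 13032), also named dipeptidyl peptidase 1, which activates serine proteases of immune cells, read 6.91 and 6.73 in scramble and 7.79 and 7.82 in knockdown. It was 1.98-fold higher (log2 fold change 0.99, SE 0.11, adjusted p = 0.00212), and the other detected probe set gave 0.89. Ctsh (Entrez Gene 13036), an aminopeptidase, read 4.30 and 4.05 against 5.11 and 5.06. It was 1.88-fold higher (log2 fold change 0.91, SE 0.12, adjusted p = 0.00369). In all 3 genes each knockdown array was above each scramble array, and the call held without any 1 array.

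Ctsl, a general lysosomal cysteine protease, read 10.38 and 10.36 in scramble and 10.31 and 10.35 in knockdown, and its log2 fold change of -0.04 (SE 0.10, adjusted p = 0.825) became 0.022 after quantile normalization and 0.027 after median centring. Ctsd, the aspartic protease, read 7.95 and 7.87 against 8.10 and 7.98 (log2 fold change 0.13, SE 0.10, adjusted p = 0.43). Ctsb read 9.50 and 9.55 against 9.65 and 9.54, with overlap (log2 fold change 0.07, SE 0.10, adjusted p = 0.67). Its 3 dimmer probe sets had log2 fold changes of -0.36, -0.09 and -0.60, the last with an adjusted p of 0.0406 over all probe sets, so the probe sets of Ctsb do not share a direction. Among the other cathepsins the log2 fold changes ran from -0.35 (Ctss, adjusted p = 0.0771, and Ctse, 0.0792) to 0.25 (Ctsa, 0.147). Ctsz had -0.01, Ctsf -0.10, Ctso -0.06, Ctsw 0.08 and Ctsq 0.13.

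Cathepsins are also abundant in macrophages, osteoclasts and fibroblasts, so marker genes of these cells were read beside them. Of 16 macrophage markers 1 was called higher (Adgre1) and 1 lower (Tyrobp), 8 were at background in both groups, and the summed linear level was 120 to 123 on the scramble arrays and 117 on both knockdown arrays. Aif1, C1qa, C1qb, Cd163, Itgam, Lyz2, Mrc1 and Ptprc were at background on every array. Tyrobp was at background in knockdown. Ctss, a cathepsin of macrophages, was lower by 0.35 log2 units without being called. Its means of 3.05 in scramble and 2.70 in knockdown were close to background. Of 5 osteoclast markers Acp5 was called higher (2.03-fold) and Tnfrsf11a, at background in knockdown, was called lower. Calcr and Ocstamp were at background on every array. Of 5 fibroblast or preadipocyte markers 4 were called higher (Pdgfra, Pdgfrb, Thy1 and, from background in scramble, Cd34). The summed level of the 5 was 58.8 to 68.8 in scramble and 101 to 107 in knockdown. The part of such cells in the cathepsin values was not tested. In bulk RNA, more cells of a type and more RNA per cell cannot be told apart.

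**Figure D3:**
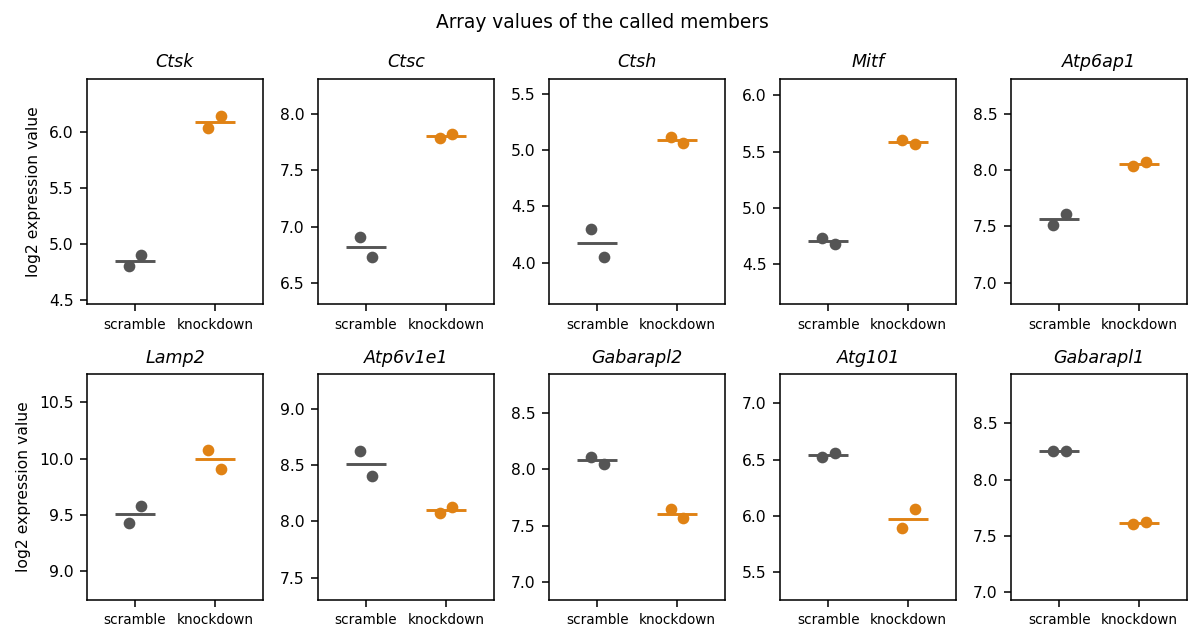
Log2 expression value on each array (points) and the group mean (lines) for the 10 called members, 2 scramble and 2 knockdown arrays each, with every panel spanning 2 log2 units around the gene's mean. In each panel the groups do not overlap, from Ctsk (2.34-fold higher) to Gabarapl1 (1.55-fold lower).

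Among the genes that start an autophagosome, 1 of 10 was called (10%, against 18.5% of all genes). Atg101 (Entrez Gene 68118), a subunit of the Ulk1 kinase complex that stabilises Atg13, read 6.52 and 6.56 in scramble and 5.89 and 6.06 in knockdown. It was 1.48-fold lower (log2 fold change -0.56, SE 0.11, adjusted p = 0.0144), and the adjusted p was 0.106 and 0.0524 without knockdown replicates 1 and 2. Ulk1, the kinase itself, read 4.99 and 5.13 against 5.01 and 5.00, with overlap and a log2 fold change of -0.06 (SE 0.10, adjusted p = 0.719), which was 0.0019 after median centring. Its relative Ulk2 had 0.25 (SE 0.10, adjusted p = 0.131) and Atg13 0.05.

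Becn1, the scaffold of the lipid kinase complex that nucleates the membrane, read 8.27 and 8.46 in scramble and 8.65 and 8.59 in knockdown. Its log2 fold change was 0.26 (SE 0.11, adjusted p = 0.155), its other probe sets gave 0.26 and 0.34, and the groups did not overlap. Atg14, which directs that complex to autophagy, had 0.19. Of the lipid transfer and vesicle genes, Atg2a, Atg2b and Atg9a had -0.08, -0.03 and -0.24, none of them called, and Atg9b was at background in both groups.

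The 9 genes of the conjugation machinery attach Atg8 proteins to lipid. Limma called 0 of them, against 18.5% of all genes, and 1 had an unadjusted p under 0.05. Atg5, part of the conjugate that acts as the ligase, read 5.35 and 5.55 in scramble and 5.58 and 5.68 in knockdown (log2 fold change 0.18, SE 0.11, adjusted p = 0.323). Its dimmer probe sets had 0.29 and 0.46, the latter with an adjusted p of 0.0242 over all probe sets. Atg7, the activating enzyme, read 5.32 and 5.12 against 5.08 and 4.80 (log2 fold change -0.28, SE 0.13, adjusted p = 0.191). Atg12 had 0.37 (SE 0.12, adjusted p = 0.0757) and was called after median centring, with a variance trend and without scramble replicate 1, and the log2 fold changes of Atg3, Atg4b, Atg4c, Atg10, Atg16l1 and Atg16l2 lay between -0.27 and 0.26.

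The 4 measured Atg8 family genes all had negative values, and 2 were called lower, where 7.18% of all genes were called lower. With 4 genes this is not a result about the family. Gabarapl1 (Entrez Gene 57436) read 8.25 and 8.25 in scramble and 7.61 and 7.62 in knockdown. It was 1.55-fold lower (log2 fold change -0.64, SE 0.10, adjusted p = 0.00656). Its probe set may cross-detect other transcripts, and closely similar relatives such as Gabarap make the value uncertain. A second Gabarapl1 probe set, not of that type, read 6.45 and 6.29 against 6.11 and 6.17, a log2 fold change of -0.23 (SE 0.11, adjusted p = 0.193 over all probe sets). Gabarapl2 (Entrez Gene 93739), also known as GATE-16, read 8.11 and 8.05 against 7.65 and 7.57. It was 1.39-fold lower (log2 fold change -0.47, SE 0.10, adjusted p = 0.0211).

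With 1 array left out the changes were about as large, but some calls were lost, as over all genes. Without knockdown replicates 1 and 2 Gabarapl1 had log2 fold changes of -0.63 and -0.64 (adjusted p = 0.0517 and 0.0526). Gabarapl2 had -0.51 and -0.43 (adjusted p = 0.0938 and 0.145), and -0.44 without scramble replicate 1 (0.053). Gabarap read 9.62 and 9.53 in scramble and 9.50 and 9.40 in knockdown (log2 fold change -0.13, SE 0.10, adjusted p = 0.438). Map1lc3a, of the LC3 branch, read 8.88 and 8.83 against 8.74 and 8.77 (log2 fold change -0.10, SE 0.10, adjusted p = 0.519). A dimmer Map1lc3a probe set gave -0.47 (SE 0.12, adjusted p = 0.0468 over all probe sets). Map1lc3b and the cargo receptor Sqstm1 have no probe set with exactly 1 symbol and were not analysed here.

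Of the 3 mitophagy genes limma called 0, against 18.5% of all genes, and 2 had an unadjusted p under 0.05. Bnip3, a receptor on the outer mitochondrial membrane, read 10.87 and 10.88 in scramble and 10.57 and 10.65 in knockdown. Its log2 fold change was -0.26 (SE 0.10, adjusted p = 0.117), the groups were apart, and it was called in eBayes with a variance trend (adjusted p = 0.000402). Its relative Bnip3l, also known as Nix, read 9.03 and 9.03 against 8.71 and 8.75 (log2 fold change -0.30, SE 0.10, adjusted p = 0.0801). A slightly dimmer Bnip3l probe set read 8.63 and 8.73 against 9.02 and 8.99, a log2 fold change of 0.33 (SE 0.10), so the direction of Bnip3l depends on the probe set. Pink1, the kinase that marks damaged mitochondria, read 6.71 and 6.74 against 6.46 and 6.78, with overlap (log2 fold change -0.11, SE 0.13, adjusted p = 0.613), and had 0.051 without knockdown replicate 1.

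Probe sets of 1 gene could disagree in size or sign. How often they do so over all genes was not counted here, so the counts below are not a result about the members. Of the 69 members, 27 had at least 2 probe sets above background in a group, and for 12 of these the log2 fold changes lay on both sides of 0. Only 4 of these 12 had a called probe set (Atp6ap2, Atp6v0a1, Ctsb and Mitf). Some of the others had values close to 0, such as Ctsz (-0.09 to 0.15) and Ulk2 (-0.05 to 0.25). The widest ranges were those of Mitf (-0.23 to 0.88), Ctsb (-0.60 to 0.07), Atp6v1a (0.38 to 1.02) and Bnip3l (-0.30 to 0.33). Taken singly, 20 of the 122 member probe sets were called, in 18 genes, against 16.6% of the 28898 probe sets with 1 symbol. Of the members not called by their brightest probe set, 8 had a dimmer one that was: Atg5, Atp6ap2, Atp6v0a1, Atp6v0a2 and Atp6v1a higher, and Atp6v0b, Ctsb and Map1lc3a lower. Where probe sets lie along the transcripts was not analysed here, and the 3' to 5' ratio of Actb differed between the groups (1.07 and 1.82). Its part in these disagreements was not tested.

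**Figure D4:**
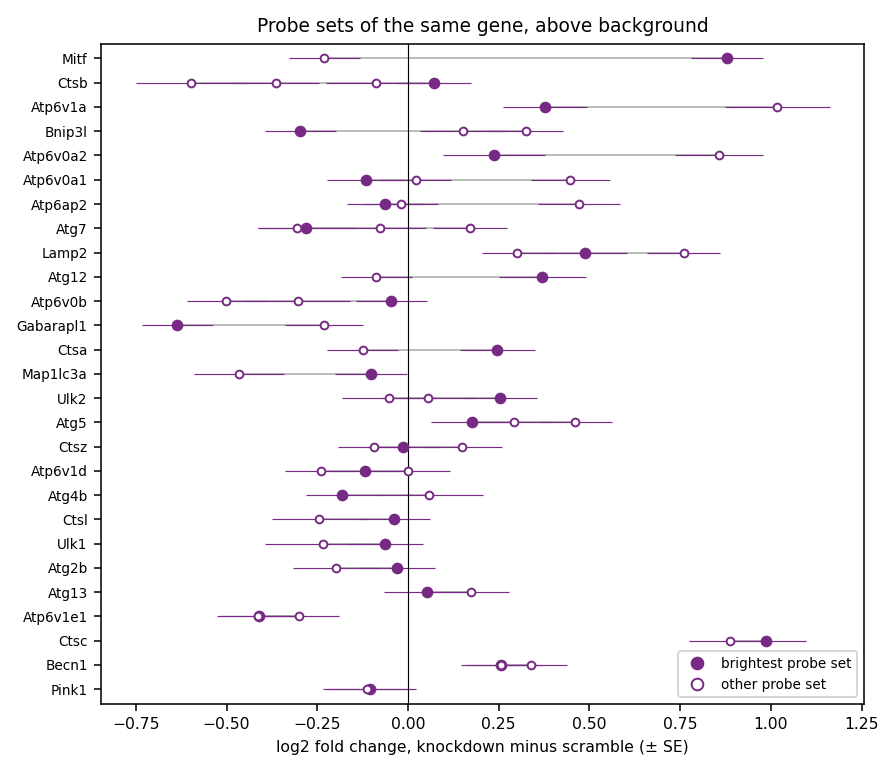
Log2 fold change, knockdown minus scramble, with its standard error for each probe set above background in a group, in the 27 members that have at least 2, ordered by the range within the gene. Filled points are the brightest probe set and open points the others, joined by a grey line. For 12 genes, among them Mitf, Ctsb and Bnip3l, the points lie on both sides of 0.

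Other genes of the same pathways were read from lists that do not overlap with the members. Of 131 measured genes 27 were called higher and 7 lower (26.0%), and 125 of them were above background in both groups. Of the 12887 genes above background in a group 24% were called, 1926 higher and 1166 lower. The share on the lists was near that background and is not a result about them. The split moved with the scaling, as it did over all genes (1941 higher and 1228 lower): it was 13 higher and 11 lower after quantile normalization, and 35 and 3 after median centring. Their median log2 fold change was 0.11, and 0.05 and 0.18 under those scalings. Without knockdown replicate 1, or without knockdown replicate 2, 5 were called. Of 34 lysosomal hydrolases and activators 9 were called (26.5%), all higher, with a median of 0.22. Over all genes the share called higher was 11.4% and the median was -0.04. Gusb, the beta-glucuronidase, read 4.62 and 4.40 in scramble and 5.81 and 5.80 in knockdown, 2.45-fold higher (log2 fold change 1.29, SE 0.11, adjusted p = 0.000981). Scpep1, Hyal1 and Hexa, the last a subunit of beta-hexosaminidase, were 1.46, 1.46 and 1.44-fold higher. Of 33 genes for lysosomal membrane proteins and enzyme sorting 9 were called higher and 3 lower (36.4%). Mfsd8, Gnptab and Tpcn2 were 1.91, 1.71 and 1.70-fold higher. Gnptab encodes the enzyme that starts the mannose 6-phosphate tag of lysosomal enzymes. Slc17a5, the sialic acid exporter, was 1.56-fold lower.

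Of 26 further autophagy and fusion genes 4 were called (15.4%), all higher. That share was below the 24% of genes above background in a group and the 18.5% of all genes (11.4% higher). Uvrag, Pik3r4, Vps39 and Vps33a, which act in the lipid kinase complex or in tethering to the lysosome, were 1.51, 1.45, 1.35 and 1.29-fold higher. Of 12 further receptor genes 1 was called higher, Tax1bp1 (1.47-fold), and 3 lower, Retreg1, Phb2 and Fundc2 (1.41, 1.35 and 1.32-fold). The share called on this short list was 33.3%, against 24% of genes above background in a group. The value of Fundc2 turned from -0.40 to 0.31 (log2) when probe sets that can detect several transcripts were left out. Of 26 nutrient signalling genes 4 were called higher and 1 lower (19.2%), which is not above the 24% of genes above background in a group. Sesn3 and Prkaa2, a sestrin and a catalytic subunit of AMPK, were 1.87 and 1.49-fold higher, and Deptor was 1.30-fold higher, while Nprl2 was 1.37-fold lower. The same arrays had the higher fibroblast or preadipocyte marker levels given above, whose part in these values was not tested.

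**Figure D5:**
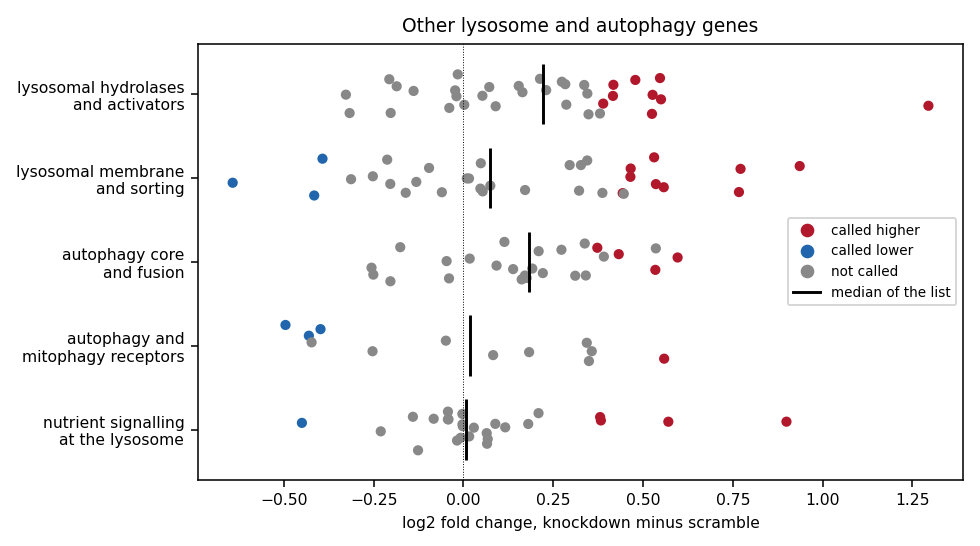
Log2 fold change, knockdown minus scramble, of the 131 measured genes on 5 lists of other lysosome, autophagy and nutrient signalling genes, 1 point per gene with vertical scatter for legibility, and the median of each list as a black line. Red points (27) were called higher and blue points (7) lower, and the single point above 1 is Gusb.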

How the data were processed

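Total RNA (250 ng) from 4 samples was labelled with biotin by 3' in vitro transcription and hybridised to Affymetrix mouse arrays, per the labels' protocols. The log2 values are those deposited by the authors, for every probe set on every array. Per the submitters' processing notes, limma, affy and RMA were used, without version or role. The log2 scale was read from the values. The genome build and the exact normalization are not given in the sources used here, and scanner files were not used here.

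Of 45141 probe sets, 104 are controls, and the platform annotation pairs 28898 with 1 symbol, 551 with several and 15588 with none. All 69 members matched RefSeq (GRCm38.p6) by Entrez ID. Background was set at the maximum over the antigenomic controls with 3 to 24 G or C bases. Limma 3.58.1 in R 4.3.3 (lmFit, eBayes, group as the only term, two-sided) was run on all probe sets that are not controls, and p-values were adjusted over the 17097 genes. Residual degrees of freedom were 2 and prior ones 4.93. The number of arrays limits the precision, with a median standard error of 0.11. The script was tested on simulated data with 200 changed genes. It recovered 57% of log2 changes of 0.5 and 99.7% of log2 changes of 1, and 6.5% of the calls were false. The simulation changed far fewer genes than the 3169 called in the data, and its variances were shuffled across genes. These shares therefore need not hold for the data. Figures were drawn with matplotlib 3.10.9.

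The members, lists, tests and alternatives were chosen with earlier results of these data known. Named genes are all called members, a set of textbook members, members whose probe sets disagree with 1 called, and up to 4 called genes per related list; the rest are named after seeing values. Alternatives tried were quantile normalization, median centring, a filter removing the dimmest 40 percent, eBayes with a variance trend (and robust), the mean of all probe sets, no probe sets of the s, x or a type (which may cross-detect other transcripts), a replicate block, each array left out, treat against 0.5, and, added after seeing the data, every probe set on its own. With 1 array left in a group, it was assumed to vary like the other group.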

Additional observations from a re-analysis of the deposited data

How the results depend on the processing

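With 1 value per gene, the 10 called members kept their direction under each of 13 other settings that gave them a value, whereas 1 of the Mitf probe sets taken singly had -0.23. Ctsk stayed called in all 13 of these settings. Leaving out 1 array gave 1050 to 2841 called genes in place of 3169, 4 to 10 called members in place of 10 (4 to 7 higher in place of 6, 0 to 4 lower in place of 4), and 5 to 25 called related genes in place of 34. With treat against 0.5, 337 genes were called, 1 member (1 higher, 0 lower) and 1 related gene. With a variance trend 20 members were called (12 higher, 8 lower) and 53 related genes, and 56 related genes when it was also robust, again with 20 members (12 and 8). Of all genes 25.6% and 26.0% were called then. With every probe set on its own, 18 members had at least 1 called probe set, but members with several have more chances of a call. In that setting 20 of the 122 member probe sets were called, against 16.6% of the 28898 with 1 symbol. The median of the members was 0.019 in place of -0.05 after median centring, and that of all genes moved by 0.06. The replicate numbers did not pair the arrays (correlation of deviations 0.036). With the replicate block 9 members were called, and Atp6v1e1 was lost (adjusted p = 0.0562).

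Sign changes among named genes that were not called were these. Atp6ap2 had 0.00019 after median centring, 0.13 with the mean of its probe sets and 0.47 without probe sets that can detect several transcripts, in place of -0.06. The mean of all probe sets gave 0.060 for Bnip3l (in place of -0.30) and -0.24 for Ctsb (in place of 0.07). Ctsl had 0.022 and 0.027 after quantile normalization and median centring. Ulk1 had 0.0019 after median centring, and -0.13 to 0.0080 with 1 array left out. Pink1 had -0.26 without knockdown replicate 2 and 0.051 without knockdown replicate 1. Tfe3 had -0.13 after quantile normalization, and -0.030 to 0.10 with 1 array left out (-0.030 without scramble replicate 2, -0.0022 without knockdown replicate 2). Among called related genes Fundc2 had 0.31 without probe sets that can detect several transcripts. The cause was not tested in any of these. With 2 arrays per group, even changes well above the median standard error of 0.11 could miss a call. Atp6v1a missed it with a log2 fold change of 0.38, and the smallest called change of a member was -0.41 (Atp6v1e1). A gene that was not called is therefore not shown to be unchanged.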
